A study of Saccharomyces cerevisiae with 17 samples.

Results

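Wide peaks of trimethylated lysine 4 of histone H3 (H3K4me3) at single gene starts were examined in exponentially growing budding yeast, Saccharomyces cerevisiae. The peaks were taken from the replicate 1 H3K4me3 list of wild-type Cps25 cells. A peak was included when it spanned 800 bp or more and contained the start codon of exactly 1 nuclear protein-coding gene. Of the 4087 peaks in that list, 379 met both conditions. A further 3148 peaks held a single start codon but were narrower and served for comparison, so wide peaks made up 10.7% of all 3527 single-start peaks. Another 140 peaks of 800 bp or more held several start codons, and 7 held none.

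The chromatin immunoprecipitation series covered 4 genotypes, all of the BY4741A background, grown in rich medium and fixed with formaldehyde. Lists of 4 libraries were used, 1 per group and all replicate 1: H3K4me3 and dimethylated lysine 4 (H3K4me2) in cells with wild-type Cps25, and H3K4me3 and H3K4me2 in cells with SET1 deleted. The antibodies were homemade rabbit polyclonals, per the labels. Each group is thus a single list, which leaves replicate error unmeasured: no p-value is given, and every difference describes these libraries. Intervals in parentheses are 95% intervals over peaks (exact Clopper-Pearson for shares, order statistics for medians) and cover counting error only, since peaks of a library are not replicates. The read depth is unknown. By their names, the wild-type lists exclude peaks also found in set1 deletion cells, which removes genes from view wherever the set1 deletion library of the same antibody had a peak.

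Set1 is the catalytic subunit of COMPASS, the complex that makes all H3K4 methylation in this yeast. COMPASS is recruited to transcribing RNA polymerase II, and the trimethyl mark is concentrated over the first nucleosomes of active genes, with dimethylation extending further into the gene. Cps25 is the product of SDC1 and the yeast counterpart of Dpy-30 in this complex.

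Because width chose the peaks, their width, edges and score in the H3K4me3 list are described without a test. The median width was 867 bp (855 to 883), with quartiles of 825 and 964 bp, and 64 peaks reached 1000 bp. The widest peak measured 1569 bp. Peaks are ranked below by percentile of the authors' score within the list, since the scale of the score is not stated. The 379 wide peaks had a median score percentile of 86.5, 351 of them lay in the upper 50% of the list and 152 in the upper 10%. The lowest percentile was 13.9, at ODC2, a mitochondrial 2-oxodicarboxylate carrier named after its value was seen. Just inside the threshold stood BUL2, MYO4 and RSM7 at 800 bp and NAP1, PXP2 and SEC13 at 801 bp. Just outside stood CDC34, FRS2, NMA1, PAF1, RBA50, RPL36B and RPO26, all at 799 bp. SET1 itself fell just outside, with an H3K4me3 peak of 798 bp at chromosome VIII, 345754 to 346551, and SDC1 carried a narrow peak of 452 bp.

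The wide peaks covered the 5′ part of the gene body. They reached a median of 133 bp (124 to 143) upstream of the first base of the start codon and 732 bp (720 to 745) downstream of it. In the narrower peaks these medians were 83.5 and 474 bp. The part of the peak lying downstream of the start codon was about the same in both classes, with a median of 85.3% (84.3 to 86.3) in the wide and 85.4% (85.0 to 85.6) in the narrower peaks. Both reaches add up to the width that chose the peaks, so only this division between them is a description beyond the rule.

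**Figure D1:**
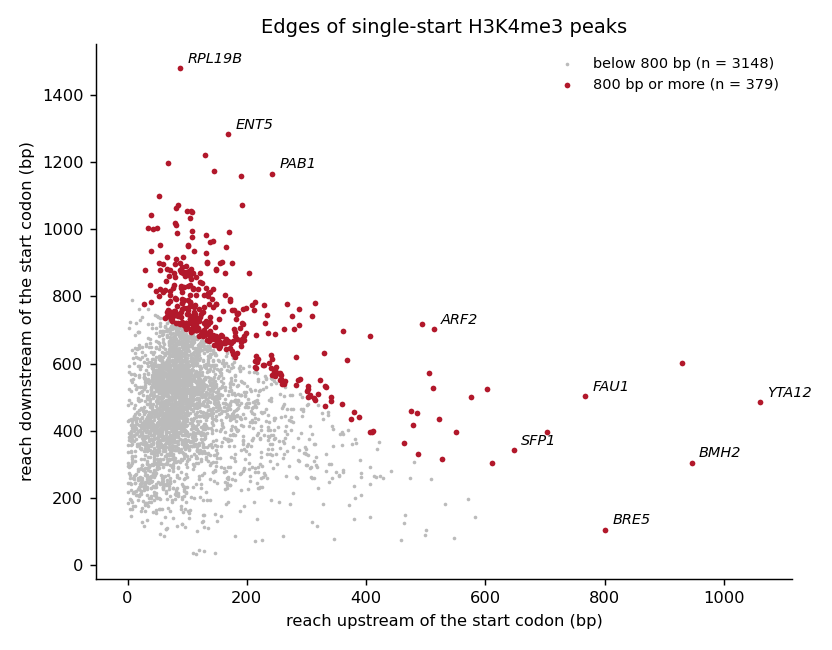
Upstream reach (x axis, bp) and downstream reach (y axis, bp) of the H3K4me3 peak from the start codon, 1 point per single-start peak of the Cps25 wild-type list; red points are the 379 peaks of 800 bp or more and grey points the 3148 narrower ones. Most red points lie close to the diagonal edge set by the threshold with short upstream reaches, and a thin tail of peaks runs to the right as far as YTA12 at 1061 bp upstream.

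The genes under the wide peaks were of about the usual length. The median span from start to stop codon was 1290 bp (1194 to 1404), against 1359 bp (1320 to 1392) under narrower peaks. The peak covered a median of 57.3% of that span, and 60 of 379 peaks (15.8%, 12.3 to 19.9) ran past the stop codon, against 6.96% of the narrower peaks. Without the ribosomal protein genes, which supplied 26 of the 60, it was 34 of 350 (9.71%, 6.82 to 13.3), against 6.90% (6.03 to 7.85) of the narrower peaks. Wider peaks pass a stop codon more readily, so the rule partly fixes these contrasts. The gap to the upstream neighbouring gene had a median of 550 bp (503 to 587), longer than the 408.5 bp (397 to 422) of the narrower class. The neighbour lay on the opposite strand, a divergent arrangement, at 185 of 379 wide peaks (48.8%, 43.7 to 54.0) and at 49.7% (48.0 to 51.5) of the narrower ones. A wide peak that also holds a neighbouring start codon is left out by the rule, which partly shapes both the gap and the divergent share. By chromosome, the share of single-start peaks that were wide ran from 3 of 62 (4.84%) on chromosome VI to 22 of 152 (14.5%) on chromosome V. Whether chromosomes differ was not tested.

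Wide peaks took different shapes around the start codon. The longest stretches into the gene body were at RPL19B, ENT5, RPS0A, AAT2 and TKL1. RPL19B (YBL027W, chromosome II), which encodes a protein of the large ribosomal subunit, had the widest peak of all, from 168335 to 169903. It reached 88 bp upstream and 1480 bp downstream and passed the stop codon by 527 bp. ENT5, an epsin-like clathrin adaptor of the Golgi and endosomes, had a peak from 766687 to 768140 on chromosome IV that reached 1284 bp downstream and covered the whole gene. RPS0A, a protein of the small ribosomal subunit, was also covered whole, with a downstream reach of 1222 bp. At AAT2, the cytosolic aspartate aminotransferase, the peak reached 1199 bp and covered 95.5% of the gene. At TKL1, the transketolase of the pentose phosphate pathway, it reached 1174 bp and covered 57.5%. In all, 21 wide peaks (5.54%) reached 1000 bp or more downstream, a distance that the narrower peaks could not have by construction.

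A smaller number of wide peaks lay mostly in front of the gene. An upstream reach of at least 300 bp was found at 50 of 379 (13.2%, 9.95 to 17.0), against 82 of 3148 narrower peaks (2.60%, 2.08 to 3.22). A wider peak has more room to reach upstream, so the rule partly fixes this contrast. The neighbour was divergent at 23 of those 50 (46%, 31.8 to 60.7), close to the 48.8% over all wide peaks. In all, 21 wide peaks (5.54%, 3.46 to 8.35) reached further upstream than downstream, against 85 of 3148 narrower peaks (2.70%, 2.16 to 3.33). YTA12, a subunit of the protease of the mitochondrial inner membrane, had the furthest upstream reach, 1061 bp, with 484 bp downstream. Its peak, from 447602 to 449147 on chromosome XIII, ended 98 bp from the start codon of the divergent gene YMR090W. BMH2, a 14-3-3 protein, followed with 946 bp upstream and 304 bp downstream. The peak at the uncharacterised gene YKR045C reached 930 bp upstream and covered 677 bp of its same-strand neighbour PLN1 without containing the start codon of that gene. BRE5, a cofactor of a ubiquitin protease, reached 801 bp upstream and 105 bp downstream. FAU1, an enzyme of folate metabolism, reached 767 bp upstream.

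**Figure D2:**
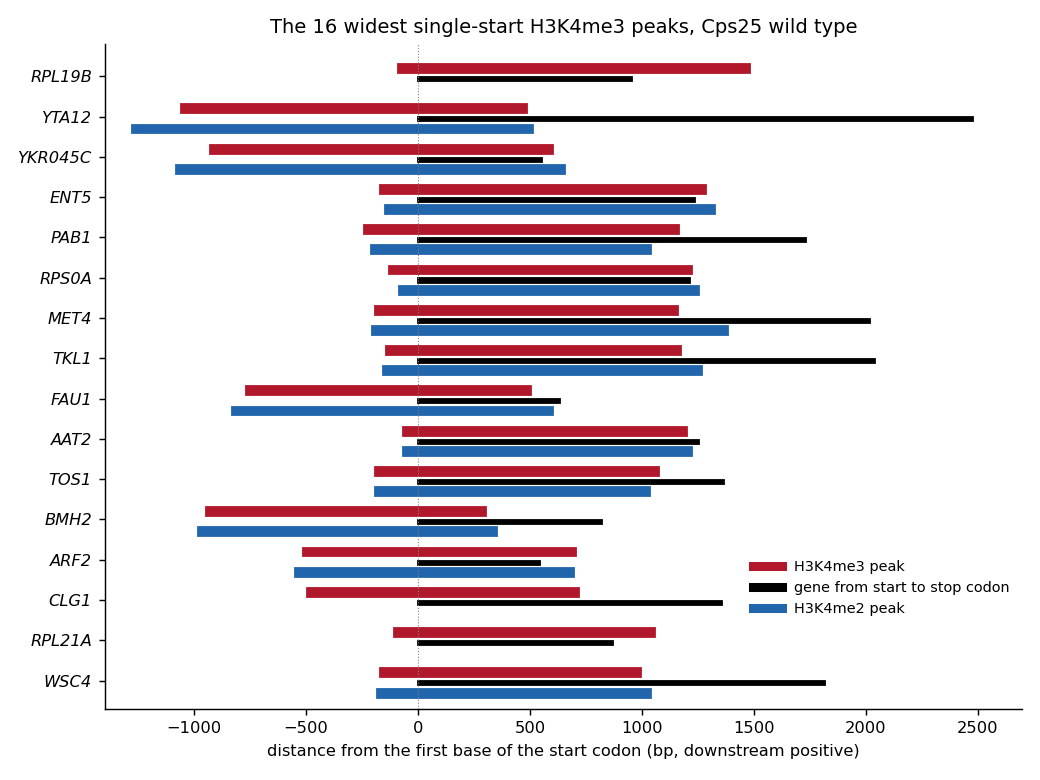
The 16 widest single-start H3K4me3 peaks (red), the gene from start to stop codon (black) and the H3K4me2 peak of the same cells (blue), drawn to scale against distance from the start codon in bp, with the direction of transcription to the right. Most red bars extend to the right of the start codon, those of YTA12, YKR045C, FAU1 and BMH2 extend mainly to the left, and RPL19B, CLG1 and RPL21A have no blue bar.

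Part of another protein-coding gene was touched at 18 of 379 wide peaks (4.75%, 2.84 to 7.40) and at 24 of 3148 narrower ones (0.762%, 0.489 to 1.13). A wider peak has more room to touch a neighbour, so the rule partly fixes this contrast. The next start codon lay within 100 bp of the peak's edge at 7, which were YTA12, RPL21B, RAS2, RPS28B, MSS116, GDH1 and CDC5. A small nucleolar RNA gene lay inside 2 of the wide peaks, SNR65 at RPS14A and SNR31 at CAF20. Those of these genes that are described nowhere else in the text were named after their values were seen.

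Among the widest peaks, PAB1, MET4 and TOS1 extended mainly into the gene. PAB1, the poly(A)-binding protein, had a peak of 1410 bp from 510130 to 511539 on chromosome V. MET4, the activator of sulphur amino acid genes, had 1351 bp from 427545 to 428895 on chromosome XIV. TOS1, a gene with a product related to cell wall proteins, named after its value was seen, had 1267 bp.

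The 10 highest scores among the wide peaks belonged to genes of different functions. STM1, which encodes a ribosome-associated protein, stood at percentile 99.95 with a peak of 1072 bp. CCW14, a cell wall mannoprotein, followed at 99.93 with 838 bp, and PUP1, a catalytic subunit of the proteasome core, at 99.90 with 843 bp. SEC13, a protein of the COPII coat and of the nuclear pore, stood at 99.88 with 801 bp. The rest of the 10 were CDC24, RPL31B, RPN6, VIP1, SEC23 and UTP15, with percentiles from 99.61 at UTP15 to 99.76 at CDC24. Their widths ran from 808 bp at UTP15 to 1063 bp at RPL31B.

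H3K4me2, read with another antibody in another library, was not used by the rule. An H3K4me2 peak overlapped 347 of the 379 wide peaks by at least 1 bp (91.6%, 88.3 to 94.2). Over all H3K4me3 peaks the share was 95.9%, and in the narrower single-start peaks it was 97.0% (96.3 to 97.6), so the share was lower at the wide peaks in these lists. All 32 wide peaks without one lay where the running numbers of the H3K4me2 list skip, as did 91 of 94 such narrower peaks between listed H3K4me2 peaks, while 6.65% of all gaps between neighbouring H3K4me2 peaks held a skip. A set1 deletion peak of the H3K4me2 antibody overlapped 30 of the 32 (93.8%, 79.2 to 99.2) and 66 of the 95 narrower peaks without H3K4me2 (69.5%, 59.2 to 78.5). A wider peak has more room for such an overlap, so the rule partly fixes this contrast. The exceptions among the wide peaks were VPH2, an assembly factor of the vacuolar ATPase, and ERG6, a sterol methyltransferase. At both, such a peak lay outside the H3K4me3 peak but within 100 bp of its edge. With peaks near set1 deletion peaks of either antibody left out, within 500 bp, 284 of 284 wide and 2821 of 2827 narrower peaks had H3K4me2.

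Of those 32, the widest were at RPL19B, CLG1, RPL21A, RPL40B and RPS14A, and at each of them set1 deletion cells had an H3K4me2-antibody peak. At CLG1, a cyclin-like partner of the Pho85 kinase, the H3K4me3 peak of 1212 bp ran from 87487 to 88698 on chromosome VII, and the set1 deletion peak from 87540 to 87690, 151 bp. At RPL19B the set1 deletion peak was 190 bp wide and lay at percentile 12.7 of its own list. RPL21A had a set1 deletion peak of 232 bp and RPL40B had 201 bp. RPS14A held a pair of them, 385 and 375 bp wide. The removed H3K4me2 peaks themselves are not in the list, so whether dimethylation depends on Set1 at these genes was not tested.

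In set1 deletion cells, an H3K4me2-antibody peak overlapped 34 of the 379 wide peaks (8.97%, 6.29 to 12.3). The share was 3.21% over all H3K4me3 peaks and 2.16% (1.68 to 2.73) in the narrower single-start peaks. Those set1 deletion peaks, 40 in all, had a median width of 199.5 bp (186 to 232), far below that of the wild-type peaks they overlapped. Their median percentile was 19.2 (11.9 to 35.9) in their list. Ribosomal protein genes supplied 20 of the 34. Without them the share was 14 of 350 (4.00%, 2.20 to 6.62), against 1.77% (1.33 to 2.29) in the narrower peaks without ribosomal protein genes. An overlap of 1 bp was enough and a wider peak has more room for it, so the rule partly fixes these contrasts. Set1 deletion peaks of the H3K4me3 antibody overlapped no wide peak, which the authors' subtraction fixes.

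Where H3K4me2 was listed, it was wide as well. Its peak had a median width of 919 bp (907 to 932) at the wide H3K4me3 peaks and 697 bp (693 to 703) at the narrower ones. H3K4me2 peaks of 800 bp or more were found at 317 of 347 (91.4%, 87.9 to 94.1). The share was 24.5% over the whole H3K4me2 list and 22.04% (20.6 to 23.6) at the narrower H3K4me3 peaks. Across the 347 peaks the widths of both marks had a Pearson r of 0.61 and a Spearman rho of 0.66, given as a description over peaks that share both libraries. Over all 3400 single-start peaks with H3K4me2 they were 0.35 and 0.65, and over the 3053 narrower ones 0.25 and 0.60.

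The edges of the marks lay close together at the wide peaks. H3K4me2 ended further downstream at 270 of 347 (77.8%, 73.1 to 82.1), with a median difference of 35 bp (29 to 43). At the upstream edge it began further out at 148 of 347 (42.7%, 37.4 to 48.0), with a median difference of -2 bp (-5 to 0). At the narrower H3K4me3 peaks, H3K4me2 ended a median of 87 bp (83 to 89) further downstream and began 16 bp (15 to 17) further upstream. H3K4me2 was the wider mark at 72.0% (67.0 to 76.7) of the wide and 95.3% (94.5 to 96.1) of the narrower peaks. Choosing peaks by a large H3K4me3 width partly fixes these differences. When single-start peaks were chosen instead by an H3K4me2 width of 800 bp or more, 990 in all, H3K4me2 exceeded H3K4me3 by a median of 133.5 bp (122 to 154), and 317 of the 990 (32.0%, 29.1 to 35.0) had an H3K4me3 peak of 800 bp or more.

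**Figure D3:**
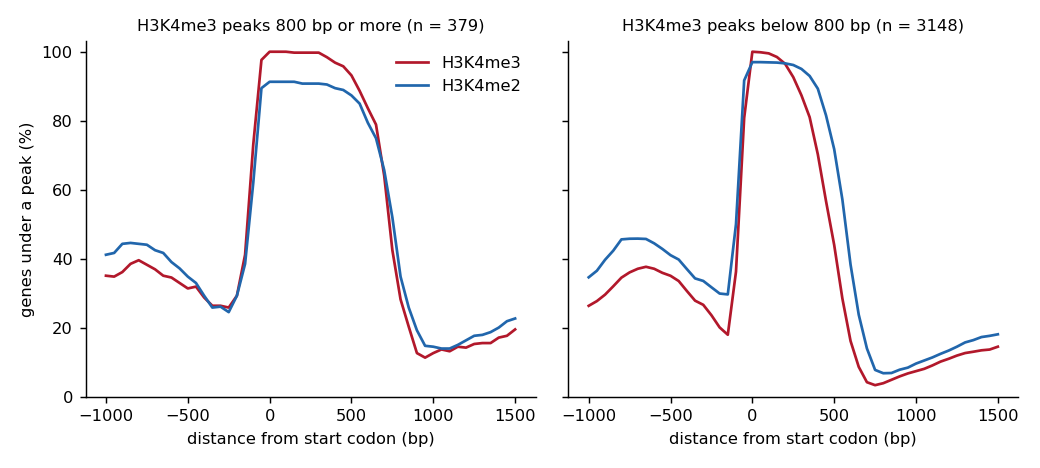
Share of genes (y axis, %) under an H3K4me3 peak (red) or H3K4me2 peak (blue) at each distance from the start codon (x axis, bp), for the 379 wide peaks (left) and the 3148 narrower ones (right). At 600 bp downstream, 83.6% of the genes in the left panel lie under an H3K4me3 peak and 79.4% under an H3K4me2 peak, against 16.2% and 38.3% in the right panel. At that distance the curves lie closer on the left, where they stand at 100% and 91.3% at 0 bp and at 42.5% and 52.0% at 750 bp. The width rule partly fixes the H3K4me3 contrast between panels.

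At a few wide H3K4me3 peaks the listed widths of the marks differed strongly. The H3K4me2 peak was wider by 1430 bp at PET123, a protein of the small mitochondrial ribosomal subunit, where it measured 2351 bp and held 3 start codons. It was wider by 953 bp at RKM3, a methyltransferase of ribosomal proteins, by 731 bp at SAC1, a phosphoinositide phosphatase, by 643 bp at THP3, and by 594 bp at SER2, the phosphoserine phosphatase of serine synthesis. At each of these the H3K4me2 peak joined the start codon of at least 1 neighbouring gene, which was so at 9 of 347 wide peaks (2.59%, 1.19 to 4.87) and at 8.12% (7.18 to 9.15) of the narrower ones. At the other end, H3K4me2 was narrower than H3K4me3, by -771 bp at RPL21B, -466 bp at RPS18B, -457 bp at RPL24B, -181 bp at SWI3 and -161 bp at ESF2. At RPS18B this is the one with the larger overlap of 2 H3K4me2 peaks, which together overlapped 902 bp (81.8%) of the H3K4me3 peak. The first 3 of these genes encode ribosomal proteins, and the H3K4me3 peak of each also overlapped a set1 deletion H3K4me2 peak. At RPS18B and RPL24B that overlap was only 59 and 70 bp, at the edge of the H3K4me3 peak past the stop codon. At RPL21B the listed H3K4me2 peak, 370 bp from 407301 to 407670, held no start codon. The set1 deletion peak there, from 406676 to 406861, lay just past the start codon, where a wild-type peak would have been taken out of the list. Whether the subtraction shortened the listed H3K4me2 at these 3 genes was not tested. SWI3 is a subunit of the SWI/SNF remodeller and ESF2 acts in maturation of the small ribosomal subunit.

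The authors divided their H3K4me2 peaks into clusters 1 and 2 by a method not given in the sources used here. Cluster 1 held 18.9% of all H3K4me2 peaks, and 214 of the 347 at wide H3K4me3 peaks (61.7%, 56.3 to 66.8). At the narrower peaks it held 526 of 3053 (17.2%, 15.9 to 18.6). By H3K4me3 width the share was 1.83% below 400 bp, 9.02% from 500 bp, 45.8% from 700 bp, 62.8% from 800 bp, 64.6% from 900 bp and 52.0% from 1000 bp, so it was not highest at the widest peaks, where the intervals overlap.

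**Figure D4:**
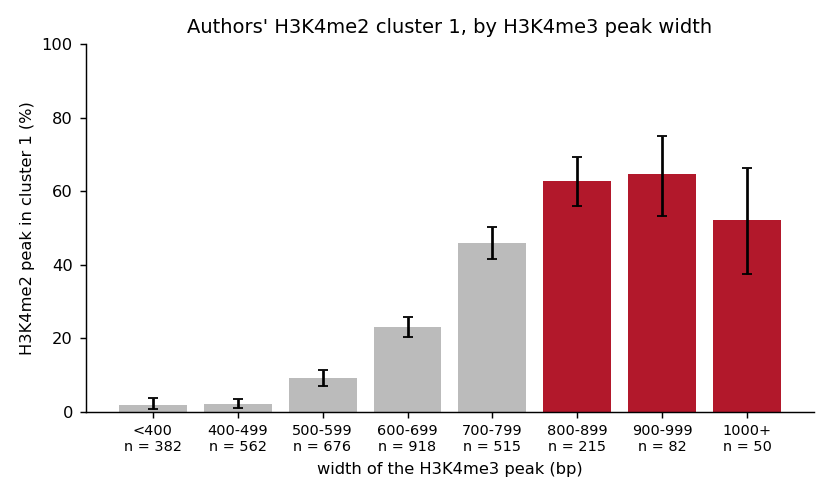
Share of overlapping H3K4me2 peaks that the authors placed in cluster 1 (y axis, %), by width of the single-start H3K4me3 peak (x axis, bp); red bars are the wide peaks, grey bars the narrower ones, n is the number of H3K4me3 peaks with H3K4me2, and error bars are exact 95% intervals over peaks. The bars climb from 1.83% in the narrowest class to 64.6% at 900 to 999 bp and stand at 52.0% from 1000 bp.

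Wide peaks also had high scores, and the cluster 1 share moved with the score. Among H3K4me3 peaks in the upper 10% by score it was 85.7% (78.8 to 91.1) at wide and 69.4% (62.6 to 75.6) at narrower peaks. From percentile 75 to 90 it was 67.0% (57.6 to 75.4) and 49.4% (44.6 to 54.3). From 50 to 75 it was 24.6% (14.8 to 36.9) and 16.4% (13.99 to 19.1), and in the lower 50% it was 3.70% (0.0937 to 19.0) and 2.16% (1.499 to 3.002), with only 27 wide peaks there. The share was also higher at wide H3K4me3 peaks when H3K4me2 peaks of like width were set side by side. For H3K4me2 peaks of 800 to 899 bp the share was 77.4% (68.7 to 84.7) against 30.1% (25.2 to 35.4), and from 1000 bp it was 40.9% (30.8 to 51.5) against 6.25% (3.68 to 9.82). These classes were not matched by H3K4me3 score. Nor were they matched for H3K4me2 peaks that join a further start codon, 2.59% at all wide and 8.12% at all narrower H3K4me3 peaks. A link to H3K4me3 width alone was therefore not tested.

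Gene lists are described by the share of their single-start genes with a wide peak, read against the background of 10.7%. Genes whose start codon shares a peak with another start codon are left out of these shares. By count, in lists of different size, those under a shared peak of 800 bp or more were most numerous among chromatin genes (9, against 6 counted). The secretory pathway (8, against 13) and mitochondrial ribosomal proteins (7, against 4) followed. Respiration had 3, against 2 counted. A low share therefore does not mean that a list has few genes under wide peaks. Of 137 cytosolic ribosomal protein genes, 61 had a single-start H3K4me3 peak, and 29 of these were wide (47.5%, 34.6 to 60.7), with a median width of 989 bp. A further 73 had no start codon in any listed peak, and 68 of those 73 lay near a set1 deletion H3K4me3 peak, so most of the family was outside the comparison. The widest were RPL19B at 1569 bp, RPS0A at 1353 bp and RPL21A at 1164 bp. Of the 29, 26 (89.7%, 72.6 to 97.8) had a peak that ran past the stop codon. At the narrower peaks of the family it was 4 of 32 (12.5%, 3.51 to 29.0), a contrast that the width rule partly fixes. H3K4me2 was listed at 12, all in cluster 1, and 20 overlapped a set1 deletion H3K4me2 peak, against 14 of the other 350 wide peaks. Of the 32 narrower peaks of the family, 17 had H3K4me2, 16 of those 17 in cluster 1. A set1 deletion H3K4me2 peak overlapped 13 of the 32 (40.6%, 23.7 to 59.4, against 69.0%, 49.2 to 84.7, for the wide ones). The width rule partly fixes this contrast too.

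Most ribosomal protein genes exist as near-identical pairs, and how reads that map to both copies were handled was not stated, so the peaks of such pairs are uncertain. Both copies had a single-start peak in 15 pairs. In 5 pairs both copies were wide (RPL17, RPL21, RPL40, RPS18 and RPS21), and in the other 10 neither was. The copies of RPL21 measured 1164 and 1141 bp and those of RPS18 1085 and 1103 bp. Those of RPL8 measured 172 and 211 bp and those of RPL36, just below the threshold, 781 and 799 bp. These pairs were named after their values were seen.

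Translation factors had 12 wide peaks of 24 (50%, 29.1 to 70.9). PAB1 led at 1410 bp, followed by NIP1, a subunit of initiation factor eIF3, at 953 bp and SUP45, the release factor, at 940 bp. Of the 9 members of this group with H3K4me2, 8 were in cluster 1. Aminoacyl-tRNA synthetases, which charge tRNAs, had 9 of 26 (34.6%, 17.2 to 55.7). The widest were DED81 for asparagine at 935 bp, FRS1, a subunit of the phenylalanine enzyme, at 934 bp, and HTS1 for histidine at 875 bp. Ribosome biogenesis factors had 15 of 110 (13.6%, 7.84 to 21.5), close to the background, with CBF5, the pseudouridine synthase of small nucleolar particles, at 1013 bp, the GTPase NOG1 at 995 bp and ESF2 at 990 bp. Subunits of RNA polymerases I, II and III had 6 of 28 (21.4%, 8.30 to 41.0), with RPA190 and RPA49 of polymerase I at 927 and 848 bp and RPB2 of polymerase II at 843 bp. Mitochondrial ribosomal proteins had 4 of 65 (6.15%, 1.70 to 15.0), with MRP13 at 1002 bp, PET123 at 921 bp and MRPL8 at 813 bp. The share was thus lower than in cytosolic ribosomal proteins, but the intervals count paired copies as separate genes. The copies of each cytosolic pair described above fell in the same class, and most of that family was outside the comparison. Whether both families differ was therefore not tested.

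Protein turnover and folding genes followed. Proteasome genes had 10 wide peaks of 28 (35.7%, 18.6 to 55.9), and all 10 overlapped an H3K4me2 peak of cluster 1. PRE2, a catalytic core subunit, measured 956 bp, RPN3 of the lid 922 bp and the ATPase RPT3 915 bp. Chaperones, a list added after the members were seen, had 11 of 29 (37.9%, 20.7 to 57.7). SSE1, a nucleotide exchange factor for Hsp70, measured 1057 bp, the J-protein SIS1 1005 bp and CCT4 of the cytosolic chaperonin 967 bp. The secretory pathway had 13 of 78 (16.7%, 9.18 to 26.8), with the small GTPase ARF2 at 1218 bp, SEC23 of the COPII coat at 960 bp and COG2 of the Golgi tethering complex at 951 bp. The vacuolar ATPase, another list added later, had 6 of 15 (40.0%, 16.3 to 67.7), with VPH2 at 1041 bp and the subunits VMA6 at 967 bp and VPH1 at 926 bp. Nuclear pore and transport genes, also added later, had 9 of 48 (18.8%, 8.95 to 32.6), with the nucleoporin NUP57 at 915 bp, the Ran GTPase GSP1 at 892 bp and the importin PSE1 at 867 bp.

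Biosynthetic pathways were represented unevenly. Amino acid biosynthesis had 15 of 54 (27.8%, 16.5 to 41.6), led by ILV3 of the branched-chain pathway at 1096 bp, CYS3 of cysteine synthesis at 1031 bp and the asparagine synthetase ASN2 at 985 bp. All 15 had H3K4me2, and 6 were in cluster 1. Purine nucleotide synthesis, added after the members were seen, had 8 of 16 (50%, 24.7 to 75.3), with the GMP synthase GUA1 at 1115 bp, ADE13 at 992 bp and ADE6 at 973 bp. Sterol and lipid synthesis had 6 of 25 (24.0%, 9.36 to 45.1), with the fatty acid elongase ELO3 at 1075 bp, ERG6 at 1038 bp and the isopentenyl diphosphate isomerase IDI1 at 835 bp. Cell wall genes had 9 of 28 (32.1%, 15.9 to 52.4), with the mannosyltransferase KRE2 at 1044 bp, the GTPase RHO1 at 1018 bp and the glucanase BGL2 at 963 bp. Respiratory and citric acid cycle genes had 2 of 40 (5%, 0.611 to 16.9), and both encode subunits of the catalytic part of ATP synthase, ATP1 at 1060 bp and ATP2 at 1045 bp. Glycolysis and fermentation could hardly be read, since 18 of 20 genes had no start codon in a listed peak, and 12 of those lay near a set1 deletion H3K4me3 peak. ADH3, the mitochondrial alcohol dehydrogenase, was its wide member at 964 bp.

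Among regulators, transcription factors and corepressors had 15 wide peaks of 47 (31.9%, 19.1 to 47.1). MET4 measured 1351 bp, CUP9 1036 bp and CYC8, a subunit of a general corepressor, 997 bp. Of the 13 with H3K4me2, 5 were in cluster 1. Cyclins and cell cycle regulators had 4 of 36 (11.1%, 3.11 to 26.1), with the G1 cyclin CLN3 at 979 bp, the transcription factor SWI5 at 839 bp and NRM1, a corepressor of G1 genes, at 815 bp. Genes of TOR, Ras and glucose signalling had 3 of 33 (9.09%, 1.92 to 24.3), which were RAS2 at 1095 bp, GPA2 at 848 bp and the phosphatase SIT4 at 825 bp. Chromatin remodelling, acetylation and methylation genes had 6 of 60 (10%, 3.76 to 20.5), with SDS3 of the Rpd3 deacetylase complex at 844 bp, SWI3 at 837 bp and ARP9 of the SWI/SNF and RSC remodellers at 827 bp. These 3 lists stood close to the background in single-start peaks. Meiosis and sporulation had 0 of 1, since 58 of its 60 genes had no start codon in a listed peak.

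**Figure D5:**
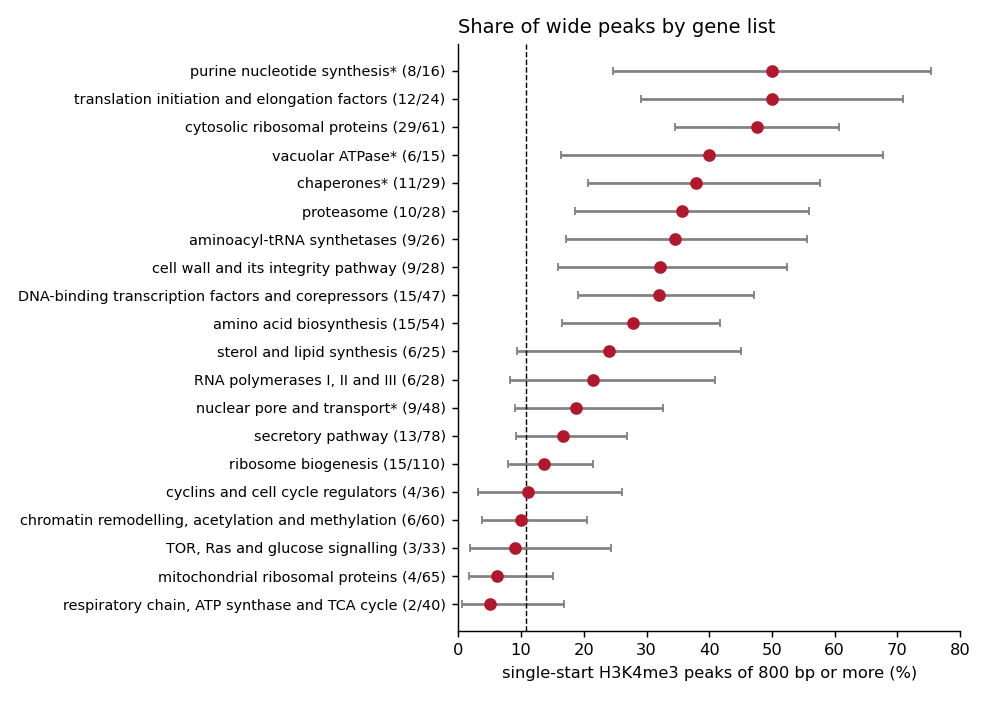
Share of single-start H3K4me3 peaks of 800 bp or more (x axis, %) in each gene list with at least 10 such peaks, with the number wide and the number in all; error bars are exact 95% intervals over genes, the dashed line is the 10.7% over all single-start peaks, and an asterisk marks a list added after the members were seen. Purine synthesis, translation factors and cytosolic ribosomal proteins stand furthest right at 50%, 50% and 47.5%, and respiration and mitochondrial ribosomal proteins furthest left at 5% and 6.15%. Genes whose start codon shares a peak with another start codon are not counted.

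The lists together held 192 of the 379 genes, 159 of them in a list that was not added later, and 187 were in none. Of all 379, 9 had only a systematic name.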

How the data were processed

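Each list belongs to 1 library. Per the submitters' processing notes, Bowtie 1.1.2, MACS2 2.1.1 and the build sacCer3 were used, with no settings or control named. The peak score that the authors deposited has no stated scale and served only to rank peaks within a list. Per the file headers, the H3K4me2 list also gives a cluster number. Read depth is unknown.

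Start codons and gene spans (introns included) came from RefSeq R64, with strand read from the systematic name. Of 6477 genes, 6002 were nuclear and protein-coding. The whole start codon had to lie in the peak, overlaps needed 1 bp, and coordinates count from 1. The H3K4me2 start may be off by 1 bp. No genome sequence was used. The other 13 of 17 libraries were not analysed here. The interval code was tested on simulated peaks and checked against bedtools 2.31.1 in 12 list pairs, with 0 differing. Python 3.11.15, numpy 2.4.6, pandas 2.3.3 and scipy 1.17.1 were used.

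The members and gene lists were chosen with earlier results of these data known. Of 22 lists, 4 were added after the members were seen, and some of the other 18 were then corrected by dropping genes of another function, which changed their counts, and 1 was renamed. Named genes are those at the 10 widest and 10 highest-scoring peaks, nearest the threshold, reaching furthest to either side, widest without H3K4me2 or with a set1 deletion peak, with the most unequal marks (5 each), and up to 3 per list by width, with SET1 and SDC1. Others are marked as chosen after their values were seen.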

Additional observations from a re-analysis of the deposited data

How the results depend on the processing

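Of 55 values recomputed under 11 alternatives, 35 stayed within the interval of the reported value (within 1.5 times for the number of peaks) and 20 moved; the cause was not tested, beyond the choice of peaks itself. A width threshold of 700 bp gave 905 peaks, an H3K4me2 share of 95.2%, an H3K4me2 median width of 839 bp, a downstream difference of 46 bp and a set1 deletion share of 5.08%. A threshold of 1000 bp gave 64 peaks, 78.1%, 1149.5 bp, a set1 deletion share of 23.4% and a divergent share of 42.2%. With peaks within 200 bp merged, the H3K4me2 width was 975 bp, the downstream difference 46 bp and the divergent share 41.9%. Without peaks within 500 bp of a set1 deletion peak, the H3K4me2 share was 100% and the set1 deletion share 0%, the latter by construction. With genes of at least 1000 bp, 248 peaks were left, with shares of 97.2% and 2.42%. Without cytosolic ribosomal protein genes, an alternative chosen after seeing the data, these shares were 95.7% and 4.00%. The cluster 1 share was 60.9% and 60.3% under the restrictions added for it. No paired analysis was possible because only replicate 1 of each group had a list here, and for the same reason no replicate could be left out. The unknown read depth limits every edge and width.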

Other observations

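URA3, which encodes the orotidine phosphate decarboxylase of pyrimidine synthesis, was among the wide peaks, and BY4741 is known as a strain with URA3, HIS3, LEU2 and MET17 deleted. Its H3K4me3 peak in the library labelled wild-type Cps25 measured 879 bp, from 116062 to 116940 on chromosome V, at score percentile 98.7, and covered 96.3% of the gene. No H3K4me2 peak was listed there, and 3 consecutive H3K4me2 peak numbers were skipped. Set1 deletion cells had an H3K4me2-antibody peak of 160 bp inside the gene, at percentile 1.29. HIS3, LEU2 and MET17 had no listed peak of either mark in the wild-type Cps25 lists. HIS3 had 2 peaks of each antibody in set1 deletion cells, so a wild-type peak there would have been taken out of these lists, while LEU2 and MET17 had none in either genotype's lists. The labels do not say what carries URA3 in these cells. These genes were named after their values were seen.

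The peak of STM1 had the highest H3K4me3 score of the wide peaks, at percentile 99.95, but its H3K4me2 peak of 1060 bp lay at percentile 44.96 of the H3K4me2 list. At the other peaks among the 10 highest that had H3K4me2, the H3K4me2 percentile ran from 79.0 at SEC13 to 98.9 at CDC24.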
